A study of Mus musculus with 6 samples.

Results

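Receptors of the TNF superfamily and the TRAF adaptors that dock on them were examined in bone marrow-derived macrophages (BMDM) with and without the catalytic subunit of protein phosphatase 2A (PP2Ac). The 10 genes were taken by symbol from the deposited table of 55453 genes. They comprise 5 receptors, *Tnfrsf1a*, *Tnfrsf1b*, *Cd40*, *Fas* and *Tnfrsf11a*, and 5 adaptors, *Traf1*, *Traf2*, *Traf3*, *Traf5* and *Traf6*. All 10 passed the filter on low counts, as did 13680 genes in all. The 6 RNA-Seq libraries came from mice of the strain C57BL/6, with 3 libraries labelled PP2A KO and 3 labelled Wild Type (WT). The study describes the KO cells as grown from *LysM cre PP2Ac fl/fl* mice, in which the lysozyme promoter drives Cre in myeloid cells and exon 1 of *Ppp2ca* is floxed. The WT mice came from a commercial breeder and were not Cre-negative littermates with floxed alleles. No treatment, age or sex is given in the labels. The libraries were taken as treated with the STING agonist cGAMP in both genotypes, which is what the study describes for RNA-Seq of BMDM, and no untreated libraries were analysed here.

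TNF receptors are membrane proteins that are brought together by trimeric ligands. TNFR1 (*Tnfrsf1a*) and FAS carry a death domain, whereas TNFR2 (*Tnfrsf1b*), CD40 and RANK (*Tnfrsf11a*) bind TRAF proteins directly. TRAF2, TRAF3, TRAF5 and TRAF6 hold a RING domain and a TRAF domain, and TRAF1 lacks the RING. TRAF2 brings the ubiquitin ligases cIAP1 and cIAP2 to receptors, TRAF3 with them keeps the kinase NIK low and takes part in type I IFN induction, and TRAF6 serves RANK, CD40, Toll-like and IL-1 receptors. In macrophages these receptors feed NF-κB and MAPK signaling, and CD40 receives help from T cells.

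The upstream sequences of 4 adaptors and receptors are shown to set genes that rose in PP2A KO beside genes that did not pass the test. RefSeq start sites on GRCm38.p6 were matched for 9 of the 10 genes, and *Cd40* had no entry. Of each, the 250 bases before the start were searched on both strands for the NF-κB consensus, for the interferon-stimulated response element (ISRE, GAAA repeated after any 2 bases) and for the STAT site GAS (TTCNNNGAA). Among all 32851 windows of this length, 7.25% held the NF-κB consensus, 2.98% the ISRE and 7.02% the GAS. Among the 9 windows, 1 held the NF-κB consensus, 1 the ISRE and 3 the GAS, and no matches overlapped each other. Each sequence reads 5′ to 3′ on the gene's own strand and ends at the base before the start, with capitals for the matched letters. *Traf1* (minus strand, chr2:34961773-34962022) and *Traf2* (minus strand, chr2:25546941-25547190), both higher in PP2A KO, held none of the 3 motifs. *Traf3* (plus strand, chr12:111166120-111166369) held the NF-κB consensus directly at the start, and *Tnfrsf1b* (minus strand, chr4:145246871-145247120) held a GAS and an ISRE. A match is only a match of letters, and a window without one says nothing about sites elsewhere.
Traf1: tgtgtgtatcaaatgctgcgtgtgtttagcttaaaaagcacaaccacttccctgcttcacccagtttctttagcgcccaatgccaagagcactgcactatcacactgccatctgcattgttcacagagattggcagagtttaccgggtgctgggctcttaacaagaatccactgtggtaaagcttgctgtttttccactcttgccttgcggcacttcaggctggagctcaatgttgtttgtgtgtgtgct
Traf2: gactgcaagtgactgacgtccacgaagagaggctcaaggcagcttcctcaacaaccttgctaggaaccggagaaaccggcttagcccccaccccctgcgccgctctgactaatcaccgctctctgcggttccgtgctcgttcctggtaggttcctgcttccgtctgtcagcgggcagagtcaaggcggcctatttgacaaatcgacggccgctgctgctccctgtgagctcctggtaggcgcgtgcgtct
Traf3: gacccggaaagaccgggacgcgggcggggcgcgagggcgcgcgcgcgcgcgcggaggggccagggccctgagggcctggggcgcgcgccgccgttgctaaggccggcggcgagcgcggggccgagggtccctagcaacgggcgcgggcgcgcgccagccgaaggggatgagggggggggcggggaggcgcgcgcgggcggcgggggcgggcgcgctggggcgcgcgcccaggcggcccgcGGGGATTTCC
Tnfrsf1b: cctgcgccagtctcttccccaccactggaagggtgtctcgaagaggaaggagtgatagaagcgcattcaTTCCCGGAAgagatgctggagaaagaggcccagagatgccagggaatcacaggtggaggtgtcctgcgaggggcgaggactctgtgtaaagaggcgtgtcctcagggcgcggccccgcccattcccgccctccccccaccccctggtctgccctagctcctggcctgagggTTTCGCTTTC
The GAS matches in the windows of *Tnfrsf1a* and *Fas* lay 244 to 236 and 93 to 85 bases before the start. *Tnfrsf1a* was higher in PP2A KO as well. The windows of *Traf5*, *Traf6* and *Tnfrsf11a*, none of them called, held no match to any of the motifs. The windows of *Tnf*, *Tnfaip3*, *Birc3* and *Tank*, which were all higher in PP2A KO, were searched as well. All *Tank* windows held the NF-κB consensus, as did a window of *Tnfaip3*, while another *Tnfaip3* window held no match. *Tnf* and *Birc3* held no match to any of the motifs. Windows with and without a match thus occurred among both called and uncalled genes.

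Between 35257156 and 47390899 reads per library were counted on genes. In the library check, *Ppp2ca* had 33 to 47 counts in PP2A KO and 8279 to 10654 in WT, which is -7.67 on the log2 scale. Of the 8 macrophage markers listed, all were counted. In PP2A KO, 3 were higher and 0 lower, against 18.1% and 19% of all genes tested. Once replicate numbers were blocked, 5 were higher, which adds *Csf1r* and *Cd14*, against 24.4% of all genes. The summed level of the 8 markers was 9214 to 9266 CPM in PP2A KO and 7652 to 8281 CPM in WT (CPM, counts relative to the TMM-scaled library size). All 4 fibroblast markers, *Col1a1*, *Col1a2*, *Col3a1* and *Dcn*, were lower, with a summed 22.7 to 33.4 CPM in PP2A KO and 74.9 to 118 CPM in WT. In such bulk libraries, fewer cells of a type and less RNA per cell cannot be told apart. The study describes its cell-based work in general as done in biological triplicate, without saying whether these libraries came from separate mice or cultures, so p-values measure the spread between these libraries, which may in part be technical.

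In PP2A KO BMDM, 4 of the 10 genes were higher at an adjusted p under 0.05 (quasi-likelihood F test of edgeR, Benjamini-Hochberg adjusted over all genes tested), and 0 were lower. These were the receptors *Cd40* and *Tnfrsf1a* and the adaptors *Traf1* and *Traf2*. Among all genes tested, 37.1% were called by the same rule, 18.1% higher and 19% lower. Under the stricter rule of more than 2-fold and an adjusted p under 0.01, *Cd40* and *Traf1* were called, 2 of 10 against 3.36% of all genes. The median log2 fold change (log2FC) was 0.34 over the 10 genes and -0.02 over all genes tested. The 3 PP2A KO libraries lay above the 3 WT libraries in 5 of the 10 genes and below them in 0, where 24% and 26.8% of all genes did so, 50.9% in all. The other 5 genes overlapped between genotypes. The separation of *Traf5* depended on the TMM scaling. With the replicate number as a block, *Fas* and *Traf5* passed as well, which makes 6 of 10 higher and 0 lower, against 24.4% and 26.4% of all genes.

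**Figure D1:**
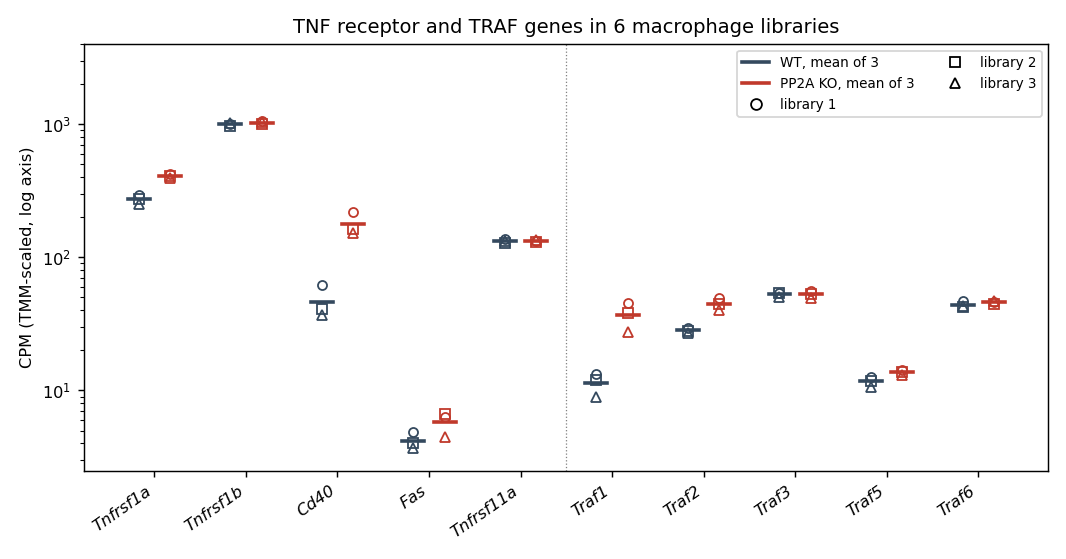
TMM-scaled CPM on a log axis for each of the 10 genes, with 1 point per library (shape gives the library number) and a bar at the mean of 3. *Cd40* and *Traf1* show the widest gap between PP2A KO (red) and WT (dark), while *Tnfrsf1b*, *Fas*, *Tnfrsf11a*, *Traf3* and *Traf6* overlap between genotypes.

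*Cd40* encodes the receptor for CD40 ligand on antigen-presenting cells and lies on the plus strand of chromosome 2 from 165055627 to 165072948 (GRCm38, GENCODE M21). It had 217, 164 and 152 CPM in the PP2A KO libraries and 61.6, 40.9 and 36.8 CPM in the WT libraries. Every PP2A KO library was above every WT library, and in both genotypes the library numbered 1 stood above the other two. The means were 178 ± 34.6 and 46.4 ± 13.3 CPM (SD, n = 3), giving a log2FC of 1.94 ± 0.20 (SE; edgeR adjusted p = 0.000158). Only 1.13% of the genes tested had a larger absolute log2 fold change.

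*Cd40* is also a gene of B cells and dendritic cells, so the markers of these cells are given beside it. The 5 B cell markers summed to 1.51 to 2.11 CPM in PP2A KO and 1.13 to 1.38 CPM in WT, with at most 30 counts of any marker in a library. Of these, *Cd79b* and *Ms4a1* passed the filter and 0 passed the test. The 5 dendritic cell markers summed to 1.87 to 2.88 CPM in PP2A KO and 0.954 to 1.69 CPM in WT. Of the 3 that passed the filter, *Clec9a* and *Siglech* were higher in PP2A KO, with log2 fold changes of 1.25 and 0.97 (adjusted p = 0.0284 and 0.0194 from edgeR). The third, *Flt3*, had 0.19 (edgeR adjusted p = 0.791). *Xcr1* was at or under the detection limit of 3 counts in every library, with 1 to 3 counts in PP2A KO and 0 in WT, and *Zbtb46* had 3 to 21 and 8 to 10 counts. The part of such cells in the difference of *Cd40* was not tested.

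*Tnfrsf1a* encodes TNFR1, the widely expressed receptor that signals through TRADD and RIPK1, and lies on the plus strand of chromosome 6 from 125349362 to 125362484. It had 423, 407 and 394 CPM in PP2A KO and 294, 275 and 252 CPM in WT. The groups were apart. The log2FC was 0.58 ± 0.07 (SE; edgeR adjusted p = 0.000452), which is 1.49-fold with a 95% interval from 1.33 to 1.68.

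*Tnfrsf1b* encodes TNFR2, the TNF receptor of hematopoietic cells that lacks a death domain, and lies on the minus strand of chromosome 4 from 145213463 to 145246870. It had 1048, 1006 and 1029.6 CPM in PP2A KO and 997, 967 and 1021 CPM in WT. The groups overlapped. The log2FC was 0.05 ± 0.06 (SE; edgeR adjusted p = 0.605), with a 95% interval from -0.10 to 0.19.

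*Tnfrsf11a* encodes RANK, which directs osteoclast formation, and lies on the plus strand of chromosome 1 from 105780718 to 105847981. It had 133, 129 and 136 CPM in PP2A KO and 136, 129 and 132 CPM in WT. The libraries of both genotypes covered the same range. The log2FC was 0.0016 ± 0.06 (SE; edgeR adjusted p = 0.986), with a 95% interval of 0.913 to 1.10 in fold. Of the 5 osteoclast markers, *Acp5* was higher, *Ctsk* and *Dcstamp* were lower, and *Calcr* had 0 counts in every library. With the replicate block *Ocstamp* was higher too. They summed to 36.0 to 39.6 CPM in PP2A KO and 40.1 to 53.2 CPM in WT, and their part in the values of *Tnfrsf11a* was not tested.

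*Fas* encodes a death receptor that builds a complex with FADD and caspase-8, and lies on the plus strand of chromosome 19 from 34290666 to 34327772. It had 6.29, 6.60 and 4.43 CPM in PP2A KO and 4.85, 4.02 and 3.70 CPM in WT. PP2A KO library 3 lay below WT library 1, and the other libraries were apart. Its log2FC of 0.45 ± 0.17 (SE) missed the threshold (edgeR adjusted p = 0.0621). With the replicate block its adjusted p was 0.00536. It also passed without PP2A KO library 3 (log2FC 0.62, edgeR adjusted p = 0.0113) and without WT library 1 (0.58, adjusted p = 0.0308).

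*Traf1* encodes the RING-less adaptor that pairs with TRAF2 and is known as an NF-κB target. It lies on the minus strand of chromosome 2 from 34941750 to 34961772. It had 45.8, 37.96 and 27.4 CPM in PP2A KO and 13.3, 11.9 and 8.92 CPM in WT. The lowest PP2A KO library was above the highest WT library, and within each genotype the library numbered 3 was the lowest. The means were 37.0 ± 9.20 and 11.4 ± 2.23 CPM (SD, n = 3), giving a log2FC of 1.70 ± 0.19 (SE; edgeR adjusted p = 0.000248). By same-numbered libraries the ratio was 3.45, 3.18 and 3.07.

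*Traf2*, whose product carries cIAP1 and cIAP2 to the TNF receptors, lies on the minus strand of chromosome 2 from 25517982 to 25546940. It had 49.1, 44.9 and 40.3 CPM in PP2A KO and 29.6, 28.2 and 26.8 CPM in WT. The groups were apart. The log2FC was 0.67 ± 0.08 (SE; edgeR adjusted p = 0.000348), or 1.59-fold with a 95% interval from 1.40 to 1.80. Of its 50-base transcript windows, 1.52% also occur in transcripts of other genes, the highest share among the 10.

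*Traf3*, on the plus strand of chromosome 12 from 111166370 to 111267153, encodes the adaptor that holds NIK in check. It had 56.2, 53.3 and 49.2 CPM in PP2A KO and 53.9, 53.7 and 50.5 CPM in WT. The groups overlapped, and its log2FC was 0.0043 ± 0.07 (SE; edgeR adjusted p = 0.967, 95% interval from 0.904 to 1.11 in fold). *Traf6*, on the plus strand of chromosome 2 from 101678429 to 101701669, encodes the adaptor of Toll-like receptors, IL-1 receptors and RANK. It had 46.5, 44.8 and 47.02 CPM in PP2A KO and 47.1, 42.0 and 43.2 CPM in WT, which also overlapped. The log2FC was 0.06 ± 0.06 (SE; edgeR adjusted p = 0.46, 95% interval from 0.948 to 1.15 in fold). For *Tnfrsf1b*, *Tnfrsf11a*, *Traf3* and *Traf6*, a missed threshold does not show equal levels, and the intervals give the differences that these libraries allow. Upper-quartile scaling turned the sign of all but *Traf6*.

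*Traf5*, which encodes a close relative of TRAF2, lies on the minus strand of chromosome 1 from 191997205 to 192092559. It had 14.1, 13.8 and 13.1 CPM in PP2A KO and 12.7, 11.8 and 10.6 CPM in WT. The groups did not overlap, although PP2A KO library 3 and WT library 1 lay close together. These 2 libraries had 546 of 44530094 and 630 of 47390899 counts, so without TMM scaling WT library 1 lies above. TMM factors were 0.910 to 0.937 in PP2A KO and 1.05 to 1.10 in WT. The log2FC of *Traf5*, 0.22 ± 0.09 (SE), had an edgeR adjusted p = 0.0695, which became 0.0135 in the blocked fit. Without WT library 1, the adjusted p was 0.0286. An antisense gene, *Gm26879*, shares 205 bp of its exons and had 0 counts in every library.

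**Figure D2:**
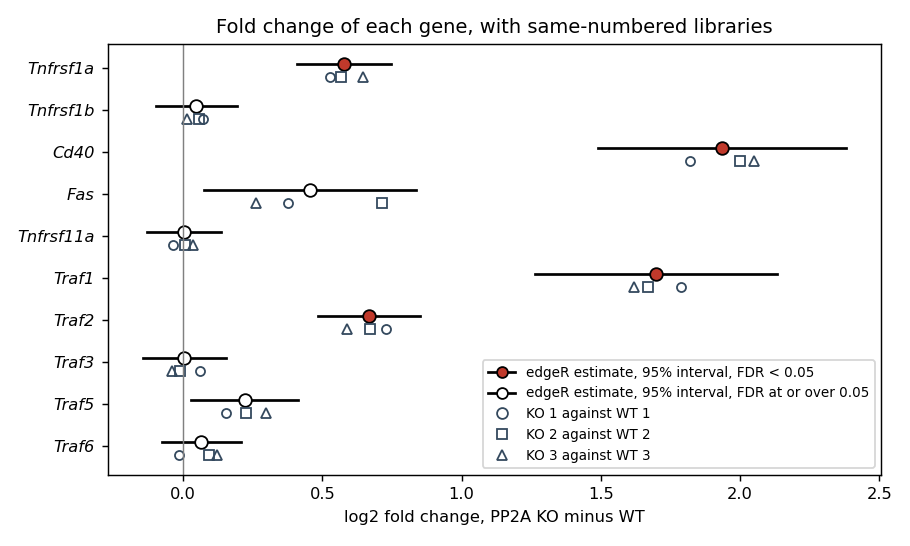
Log2 fold change of PP2A KO against WT for each gene, with the edgeR estimate and its 95% interval (filled where the adjusted p is under 0.05) above the 3 ratios of same-numbered libraries. *Cd40* at 1.94 and *Traf1* at 1.70 stand far from 0, *Traf2* and *Tnfrsf1a* at 0.67 and 0.58, and the intervals of *Tnfrsf1b*, *Tnfrsf11a*, *Traf3* and *Traf6* cross 0.

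Libraries with the same number ranked alike in several of these genes. In *Tnfrsf1a*, *Cd40*, *Traf1*, *Traf2*, *Traf3* and *Traf5*, the order of the 3 library numbers by CPM was the same in both genotypes, 6 of 10 genes against 35.5% of all genes tested. The ratio of *Cd40* between same-numbered libraries was 3.53, 4.0 and 4.14, and that of *Tnfrsf1a* was 1.44, 1.48 and 1.56. The level of *Cd40* ran from 36.8 to 61.6 CPM within WT alone.

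Levels of different genes were compared per kilobase of exon (RPKM, CPM divided by the joined exon length of all transcripts of a gene). This length is not that of the transcripts expressed, so orders and shares between genes depend on the annotation. Among the receptors of WT libraries, *Tnfrsf1b* was highest at 261 ± 7.13 RPKM (SD, n = 3), followed by *Tnfrsf1a* at 106 ± 7.98, *Tnfrsf11a* at 22.1 ± 0.635, *Cd40* at 13.6 ± 3.90 and *Fas* at 2.03 ± 0.288 RPKM. In PP2A KO, *Cd40* stood at 52.2 ± 10.1 RPKM, above *Tnfrsf11a* at 22.2 ± 0.549 RPKM, so that these neighbours changed places without overlap in either genotype, and *Fas* stayed last at 2.80 ± 0.569 RPKM. *Tnfrsf1b* made up 62.5%, 64.2% and 66.9% of the summed receptor RPKM in WT and 52.1%, 53.4% and 54.9% in PP2A KO. Its ratio to *Tnfrsf1a* was 2.48 ± 0.234 in WT and 1.71 ± 0.0529 in PP2A KO (SD, n = 3), while its own level overlapped between genotypes.

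Among the adaptors of WT libraries, *Traf3* was highest at 7.17 ± 0.258 RPKM. *Traf6* at 5.59 ± 0.334 and *Traf2* at 5.53 ± 0.276 RPKM overlapped, and *Traf5* at 2.57 ± 0.225 and *Traf1* at 1.29 ± 0.252 RPKM came last. In PP2A KO, *Traf2* was highest at 8.78 ± 0.862 RPKM, ahead of *Traf3* at 7.20 ± 0.481, *Traf6* at 5.85 ± 0.150, *Traf1* at 4.2 ± 1.04 and *Traf5* at 2.99 ± 0.116 RPKM (SD, n = 3). The *Traf1* and *Traf5* libraries nearly touched there, at 3.11 RPKM for the lowest of *Traf1* and 3.09 for the highest of *Traf5*. By mean CPM, without exon length, *Traf3* stood highest in PP2A KO at 52.9, above *Traf6* at 46.1 and *Traf2* at 44.8. *Traf1* contributed 6.43%, 6.12% and 4.83% of the summed TRAF RPKM in WT and 16.5%, 14.8% and 11.7% in PP2A KO. The ratio of *Traf3* to *Traf2* was 1.30 ± 0.0310 in WT and 0.821 ± 0.0260 in PP2A KO (SD, n = 3). None of these proportions overlapped between genotypes. Each combines genes called higher with genes not called, and the summed RPKM also holds the gene whose share is given. The separation thus follows from the levels above and is no further result. No test was made of the proportions. An exact two-sided permutation test of 3 libraries against 3 cannot go below p = 0.1.

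**Figure D3:**
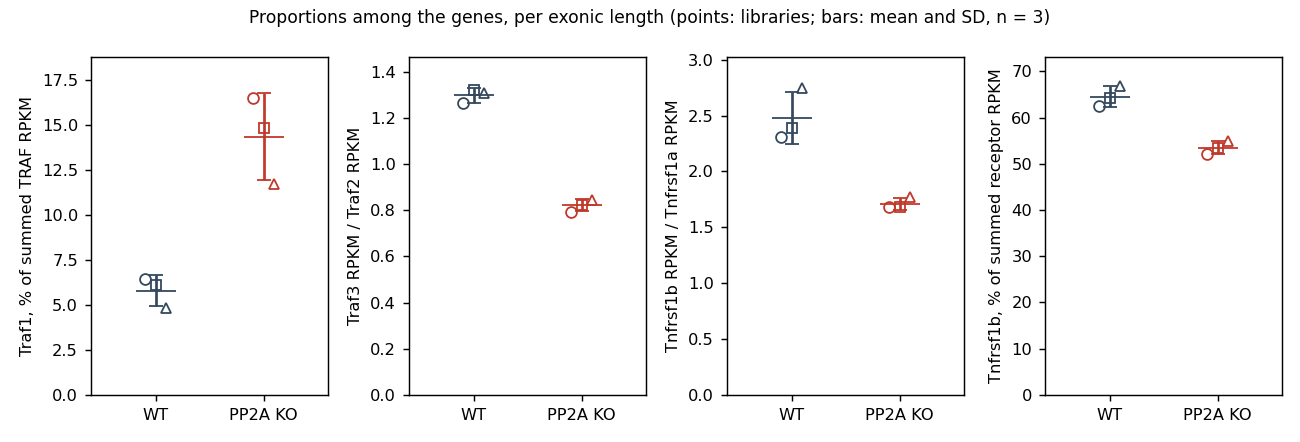
Proportions among the genes from RPKM, with a point per library and the mean and SD of 3 libraries, for the share of *Traf1* among the TRAF genes, the ratio of *Traf3* to *Traf2*, the ratio of *Tnfrsf1b* to *Tnfrsf1a* and the share of *Tnfrsf1b* among the receptors. PP2A KO libraries lie above WT in the share of *Traf1* and below WT in the others, without overlap. The proportions restate the levels of the single genes.

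Of the ligands of these receptors, *Tnf* was the only one of 6 listed that passed the filter on low counts. It had 255, 202 and 229 CPM in PP2A KO and 82.8, 64.2 and 78.5 CPM in WT, with no overlap. The log2FC was 1.61 (edgeR adjusted p = 5.4e-05), so that ligand and TNFR1 transcripts were both higher in PP2A KO. *Cd40lg* had 0 counts in every library, and *Fasl* and *Tnfsf11* (RANK ligand) had at most 2 counts in any library, again under the detection limit. *Lta* had at most 6 counts. *Ltb*, whose product binds the lymphotoxin β receptor and not one of the 5 receptors, had 8 to 14 counts in PP2A KO and 0 to 5 in WT. It did not pass the filter and was not tested.

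Of 23 further TNF receptor genes, 14 were tested. Of these, 2 were higher and 2 lower, against 18.1% and 19% of all genes tested, and 10 were not called. The median log2FC was -0.02. With the replicate block 3 of the 14 were higher and 3 lower (24.4% and 26.4% of all genes), which adds *Tnfrsf26* (log2FC 0.24) and *Tnfrsf23* (-0.21). *Tnfrsf12a* (the TWEAK receptor) rose from 9.76 ± 1.81 to 16.6 ± 0.172 CPM and *Tnfrsf14* (HVEM) from 35.8 ± 4.15 to 52.0 ± 3.51 CPM (SD, n = 3), with log2FC of 0.76 and 0.54. *Tnfrsf21* (death receptor 6) fell from 89.3 ± 1.86 to 73.8 ± 2.99 CPM. *Tnfrsf11b*, which encodes the soluble decoy receptor osteoprotegerin that stromal cells make, had 0.448, 0.515 and 0.240 CPM in PP2A KO and 2.03, 1.15 and 0.930 CPM in WT. The log2FC was -1.80 ± 0.38 (SE; edgeR adjusted p = 0.00526). The 4 fibroblast markers fell too, by a median log2FC of -2.0, and their part in the fall of *Tnfrsf11b* was not tested.

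Of 10 further TRAF and TRAF-binding genes, all were tested. Of these, 4 were higher and 0 lower, against 18.1% and 19% of all genes tested, and 6 were not called. The median log2FC was -0.03. *Tank*, whose product binds TRAF proteins and the kinase TBK1, had 154, 136 and 124 CPM in PP2A KO and 76.8, 63.8 and 52.1 CPM in WT, with no overlap. The log2FC was 1.10 ± 0.13 (SE; edgeR adjusted p = 0.000343). *Trafd1* and *Tifa*, the gene of a TRAF6-binding protein, had log2 fold changes of 0.73 and 0.58, and *Tifab* 0.22. *Tifab* was not called without PP2A KO library 2, WT library 2 or WT library 3, nor with upper-quartile scaling. *Traf7* had 0.04 and *Traf4* -0.76, with adjusted p = 0.545 and 0.142 from edgeR. With the replicate block or without PP2A KO library 3, *Traf3ip1* was called lower, 1 gene in place of 0.

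Of 24 genes for proteins that join or edit TNF receptor complexes, all were tested. Of these, 9 were higher and 1 lower, against 18.1% and 19% of all genes tested, and 14 were not called. The median log2FC was 0.15. With the replicate block, 14 were higher and 3 lower (24.4% and 26.4% of all genes), and the 9 were among the 14. *Tnfaip3*, which encodes the ubiquitin-editing enzyme A20, had 245, 194 and 211 CPM in PP2A KO and 97.6, 81.4 and 83.4 CPM in WT. Its log2FC of 1.31 ± 0.10 (SE; edgeR adjusted p = 6.16e-05) was the only one over 1 in this list. *Birc3* and *Birc2*, the genes of the TRAF2-bound ligases cIAP2 and cIAP1, rose by 0.92 and 0.64 on the log2 scale. Of the linear ubiquitin ligase subunits, *Rnf31* (HOIP) and *Rbck1* (HOIL-1) rose by 0.70 and 0.37, and *Sharpin* had 0.13 (edgeR adjusted p = 0.127 unblocked and 0.03 blocked).

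*Map3k14*, which encodes NIK, the kinase that TRAF3 holds low at the protein level, rose from 30.0 ± 2.02 to 40.02 ± 3.19 CPM (SD, n = 3), which is 0.41 on the log2 scale. The genes of the TAK1-binding proteins TAB1 and TAB2 moved in opposite directions, with log2 fold changes of -0.44 and 0.52, while *Map3k7*, which encodes TAK1 itself, had -0.02 (adjusted p = 0.824 from edgeR). *Xiap* and *Cyld*, a deubiquitinase of these complexes, had 0.28 and 0.30, with adjusted p = 0.0416 and 0.0426 from edgeR, and neither was called without PP2A KO library 1 or 2, without WT library 2 or 3, or with upper-quartile scaling. The proximal adaptor genes *Tradd*, *Ripk1* and *Fadd* had log2 fold changes of 0.02, -0.04 and -0.11, with adjusted p = 0.870, 0.597 and 0.287 from edgeR.

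**Figure D4:**
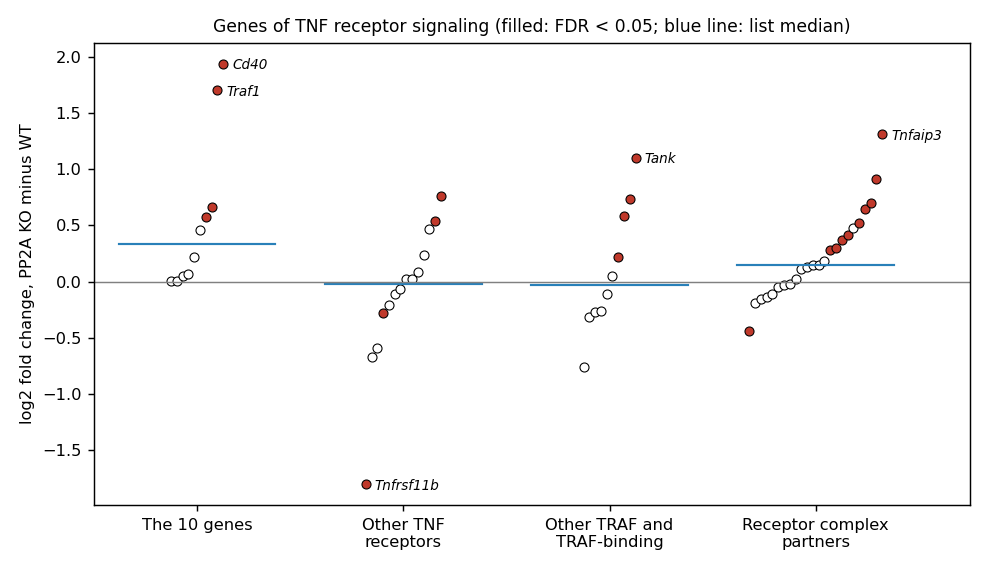
Log2 fold change of PP2A KO against WT for the genes tested among the 10 and in the lists of other TNF receptors, other TRAF and TRAF-binding genes and receptor complex partners, 1 point per gene, filled where the adjusted p is under 0.05, with a blue line at the list's median. Of these lists, *Cd40* and *Traf1*, *Tank* and *Tnfaip3* are the points over 1, and *Tnfrsf11b* is the point under -1.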

How the data were processed

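RNA-Seq libraries were made by the study's facility from poly(A) RNA with a directional kit. The authors deposited 1 table of raw counts per gene symbol and library, without normalization. Per the submitters' processing notes, the tools included fastp 0.20.0, STAR 2.7.1a, HTSeq 0.11.2 and kallisto 0.46.1 with the builds mm10 and GRCm38; annotation release and strand setting are not given in the sources used here. Genotype and replicate number came from the titles. For the test, edgeR 4.0.16 under R 4.3.3 was run on these counts: filterByExpr (minimum count 10, minimum total 15), TMM, glmQLFit and glmQLFTest on genotype alone, Benjamini-Hochberg over 13680 genes. Standard errors are the log2 fold change over the square root of F. GENCODE M21 gave positions and exon lengths. Shared 50-base windows were counted among its transcripts. Floors of 3 counts (0.0604 to 0.0909 CPM) and intervals on counts cover counting error only.

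The 10 genes, lists and tests were chosen with earlier results of these data known. Named genes are the 10, *Ppp2ca*, listed ligands and markers, and genes of the lists past a log2 fold change of 1 at FDR 0.01; other genes of the lists were named after their values were seen. Alternatives were RLE and upper-quartile scaling, 2 other filters, DESeq2 1.42.0, limma-voom (limma 3.58.1), the replicate block and leaving out each library. The replicate numbers come from the titles. Same-numbered libraries deviated together from their group means, with correlations over genes of 0.289, 0.1475 and 0.337. Between differently numbered libraries the correlations ran from -0.258 to -0.0312. Deviations from a group mean cancel within the group, so these correlations are not independent of each other. Because of the same-numbered values, the block is given where it changes a call. The fit was tested on simulated counts before use. These had a common dispersion for all genes and independent libraries, which is simpler than the data here.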

Additional observations from a re-analysis of the deposited data

How the results depend on the processing

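The calls of *Cd40*, *Tnfrsf1a*, *Traf1* and *Traf2* kept direction and threshold under the 7 alternative fits and without each of the 6 libraries. Their log2 fold changes ran from 1.88 to 1.96, 0.51 to 0.60, 1.64 to 1.73 and 0.60 to 0.69 over those fits. Without single libraries they ran from 1.76 to 2.19, 0.52 to 0.63, 1.51 to 1.88 and 0.59 to 0.74. The count of genes higher among the 10 was 4 to 6 there. *Fas* also passed with DESeq2 (adjusted p = 0.0346) and with no filter (0.00927).

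Upper-quartile scaling, which moved the median of all genes to -0.09, turned *Tnfrsf1b* to -0.017, *Traf3* to -0.059 and *Tnfrsf11a* to -0.062, none of them called. With no filter on low counts, *Traf3* was at -0.0029 and *Tnfrsf11a* at -0.0059, and with at least 10 counts in every library *Tnfrsf11a* was at -0.0021. Without single libraries, *Traf3* ran from -0.049 to 0.058 and *Tnfrsf11a* from -0.017 to 0.023. Upper-quartile scaling gave 4 lower genes among the other TNF receptors, 1 among the other TRAF genes and 4 among the complex partners, and it left 3 higher in the TRAF list (without *Tifab*) and 7 among the partners (without *Cyld* and *Xiap*). The replicate block gave 14 higher and 3 lower partners and 1 lower gene of the other TRAF list, and no filter gave 1 there and 2 higher ligands (*Tnf* and *Ltb*). Without single libraries these counts ran from 0 to 1 and from 1 to 2. *Ltb* failed the filter with all libraries and passed it in those smaller fits with only its PP2A KO libraries at 8 counts or more, so that its call there is no support. The cause was not tested. The block changed no call among the 10 genes other than those of *Fas* and *Traf5*.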

Other observations

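Of the 23 further TNF receptor genes, 9 did not pass the filter on low counts. *Tnfrsf19* had 0 counts in every library, and *Cd27*, *Ngfr* and *Edar* had at most 1, 3 and 3. *Tnfrsf13c* (the BAFF receptor), *Tnfrsf17*, *Tnfrsf18* and *Tnfrsf25* reached 8, 4, 6 and 5 counts, and *Eda2r* had 4 to 17 counts. In contrast, *Tnfrsf13b*, which encodes the receptor TACI that is best known from B cells, was counted at 22.9 ± 0.395 CPM in PP2A KO and 24.0 ± 1.27 CPM in WT (SD, n = 3). Its log2FC was -0.07 (edgeR adjusted p = 0.456). The 5 B cell markers together reached at most 2.11 CPM in any library.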
